A study of Mus musculus with 4 samples.

Results

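Neurog1, Neurog2, Neurog3, Atoh1, Neurod1, Neurod4, Olig1, Olig2 and Olig3 encode basic helix-loop-helix (bHLH) transcription factors that turn progenitors into neurons, oligodendrocytes or endocrine cells. These 9 of the 22367 protein-coding genes of the GENCODE vM1 annotation were listed by name, with earlier results of these data known, and no measured value entered the rule. For each gene, every SOX3 peak that overlapped the gene body or the 100 kb to either side of it was taken. RNA was not analysed here, so whether these genes were off or low in the cells, and whether SOX3 was bound before they were expressed, was not measured, and the label of the cells was not checked against marker genes.

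SOX3 was immunoprecipitated with an antibody to human SOX3 from neural progenitor (NP) cells in 3 biological replicates. The NP cells were derived from R1, a single line of mouse embryonic stem (ES) cells, as monolayers over 4 days in medium with the N2 and B27 supplements. An input sample of the same cells, made without antibody, served the authors as background for peak calling, and it was not analysed further here. There is 1 group of ChIP samples and no second condition, so the results are positions, counts and scores over the 3 replicates, and no test between groups was possible.

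Proneural bHLH proteins pair with E-proteins and bind E-boxes, short DNA sites such as CAGCTG and CATCTG, to switch on genes of neuronal differentiation. In the developing nervous system, Notch signalling acts through Hes repressors to hold the proneural genes down in cells that remain progenitors. SOX3 belongs to the SOXB1 proteins, which maintain neural progenitors, recognise sites related to AACAAT and often bind beside POU factors. The Olig proteins are bHLH factors of ventral and dorsal progenitor domains of the neural tube and of the oligodendrocyte lineage.

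Of the sites with a peak in all 3 replicates, the one whose lowest percentile over the replicates was highest is shown for each gene that had such a site, since the values below turn on these sites. The sequences are the stretch that the 3 peaks share, without exons, on the plus strand of NCBIM37 (mm9). A stretch of over 300 bp was cut to the 300 bp within it that lie closest to the middle of the whole site. Capitals mark, on either strand, the SOX word AACAAA or AACAAT, its relative GACAAA or GACAAT, and the POU octamer, which is ATGCAAAT or ATGCTAAT.
Neurog1 (chr13:56353525-56353729, at the gene start): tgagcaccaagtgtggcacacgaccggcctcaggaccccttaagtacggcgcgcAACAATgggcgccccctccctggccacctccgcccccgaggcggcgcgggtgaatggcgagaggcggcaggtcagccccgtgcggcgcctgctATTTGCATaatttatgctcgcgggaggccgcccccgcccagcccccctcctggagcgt
Neurog2 (chr3:127247612-127247835, in an intron of Larp7): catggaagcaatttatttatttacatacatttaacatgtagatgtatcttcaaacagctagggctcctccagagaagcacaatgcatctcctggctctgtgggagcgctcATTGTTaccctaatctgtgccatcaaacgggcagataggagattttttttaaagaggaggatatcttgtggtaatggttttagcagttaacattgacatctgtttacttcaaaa
Neurog3 (chr10:61693978-61694109, at a start of Tspan15): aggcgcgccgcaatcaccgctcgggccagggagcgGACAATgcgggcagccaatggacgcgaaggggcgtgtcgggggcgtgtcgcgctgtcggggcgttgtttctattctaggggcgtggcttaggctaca
Neurod1 (chr2:79269881-79270069, near a start of Cerkl): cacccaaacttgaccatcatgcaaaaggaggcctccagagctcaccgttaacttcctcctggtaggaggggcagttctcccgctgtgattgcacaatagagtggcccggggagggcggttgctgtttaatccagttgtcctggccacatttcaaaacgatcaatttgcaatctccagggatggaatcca
Olig1 (chr16:91334791-91335090, intergenic): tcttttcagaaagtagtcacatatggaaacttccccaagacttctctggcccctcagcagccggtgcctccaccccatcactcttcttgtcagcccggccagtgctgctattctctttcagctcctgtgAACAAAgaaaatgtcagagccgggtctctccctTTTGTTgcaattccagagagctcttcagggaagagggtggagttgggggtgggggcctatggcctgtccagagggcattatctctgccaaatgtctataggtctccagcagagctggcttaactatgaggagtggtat
Olig1 and Olig2 (chr16:91192939-91193238, intergenic): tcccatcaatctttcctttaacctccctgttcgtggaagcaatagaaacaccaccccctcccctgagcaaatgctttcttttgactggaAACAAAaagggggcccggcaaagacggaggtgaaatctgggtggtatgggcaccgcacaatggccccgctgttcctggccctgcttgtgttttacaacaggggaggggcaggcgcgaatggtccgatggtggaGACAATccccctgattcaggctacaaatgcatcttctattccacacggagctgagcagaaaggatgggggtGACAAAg
Olig3 (chr10:19124186-19124485, intergenic): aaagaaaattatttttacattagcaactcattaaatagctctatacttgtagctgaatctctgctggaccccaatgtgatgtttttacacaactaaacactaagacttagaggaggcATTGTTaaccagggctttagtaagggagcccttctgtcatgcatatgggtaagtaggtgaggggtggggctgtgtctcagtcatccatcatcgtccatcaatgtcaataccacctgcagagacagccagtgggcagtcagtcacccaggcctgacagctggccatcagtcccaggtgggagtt

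Each peak carries a score, the negative log10 of its MACS p-value multiplied by 10, and no list holds a score under 50, the threshold of 1e-05. A score depends on the depth of its library, which is unknown because the lists hold no read counts, so scores were read as ranks (1 is the highest) and percentiles (the percent of the list with a lower score) within a list. The lists were unequal, with 18816 peaks in replicate 1, 8096 in replicate 2 and 40543 in replicate 3. Peaks of different replicates that overlapped by at least 1 bp were merged into a site, which gave 51271 sites in the genome and 5358 with a peak in all 3 replicates. The authors reported a larger number of common sites, and their list was not used here. In replicates 1, 2 and 3, 23.1, 27.5 and 29.2% of the peaks were mostly multi-copy, which means that over 50% of the 50-base sequences of a peak have at least 1 further copy in the reference. Replicates 2 and 3 resembled each other in the exact edges of their peaks. Within the sites found in all 3 replicates, 58.3% of 5457 overlapping pairs of their peaks started or ended at the same base, and the share was 2.04% of 5540 pairs for replicates 1 and 2 and 2.76% of 5650 pairs for replicates 1 and 3. Near the bHLH genes, 5 of 10 pairs of replicates 2 and 3 ended at the same base and 0 started at the same base, and no pair with replicate 1 shared an edge. Of the 5457 pairs, 36.7% ended at the same base and 35.1% started at the same base. Whether replicates 2 and 3 are fully independent, on which the count of 5358 sites rests, was not tested.

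The windows of the 9 genes held 86 peaks in 55 sites. Replicate 1 contributed 38 of these peaks, replicate 2 contributed 11 and replicate 3 contributed 37. Of the 55 sites, 10 were found in all 3 replicates, 10 in 2 replicates and 35 in 1 replicate. The sites of a single replicate came from replicate 1 in 18 cases and from replicate 3 in 17 cases, and none came from replicate 2, the shortest list. Over the whole genome 10617 sites were of replicate 1 alone, 196 of replicate 2 alone and 30116 of replicate 3 alone. Olig1 and Olig2 lie next to each other, and 10 sites, 3 of them found in all 3 replicates, fell in the windows of both and were counted once in these totals. Without replicate 2, 19 sites were shared by replicates 1 and 3 in place of the 10, and 7 genes had one, where 55% of all protein-coding genes did. Without replicate 3 there were 10 sites and 7 genes, where 42.9% of all genes had one.

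A site in all 3 replicates lay in the window of 7 of the 9 genes, where 42.2% of all protein-coding genes had one. The 2 genes without such a site were Atoh1 and Neurod4, which also had no site in 2 replicates, so that 7 of the 9 genes, and 63.1% of all, had a site in at least 2. The number of sites per gene was 4 for Olig1, 3 for Olig2, 2 for Neurog1 and 1 each for Neurog2, Neurog3, Neurod1 and Olig3. Among all protein-coding genes, 15.7% had at least 2 sites, 6.94% at least 3 and 3.17% at least 4. With each site counted in every window that holds it, so that the 3 shared sites count for both Olig1 and Olig2, the mean was 1.44 sites per bHLH gene and 0.764 per protein-coding gene, and the medians were 1 and 0. Without mostly multi-copy peaks Olig1 had 2 sites and Olig2 had 1. With a window of 50 kb Olig1 had 2 and Neurog2 and Neurog3 had none, and with equal numbers of peaks in each list Neurog1 and Neurog3 had none. Without replicate 2 the numbers were 7 for Olig1, 6 for Olig2, 4 for Neurog2 and 2 each for Neurog1, Neurog3, Neurod1 and Olig3, and without replicate 1 Neurog2 had 2. A peak of any replicate lay in the window of all 9 genes and of 97.2% of protein-coding genes.

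**Figure D1:**
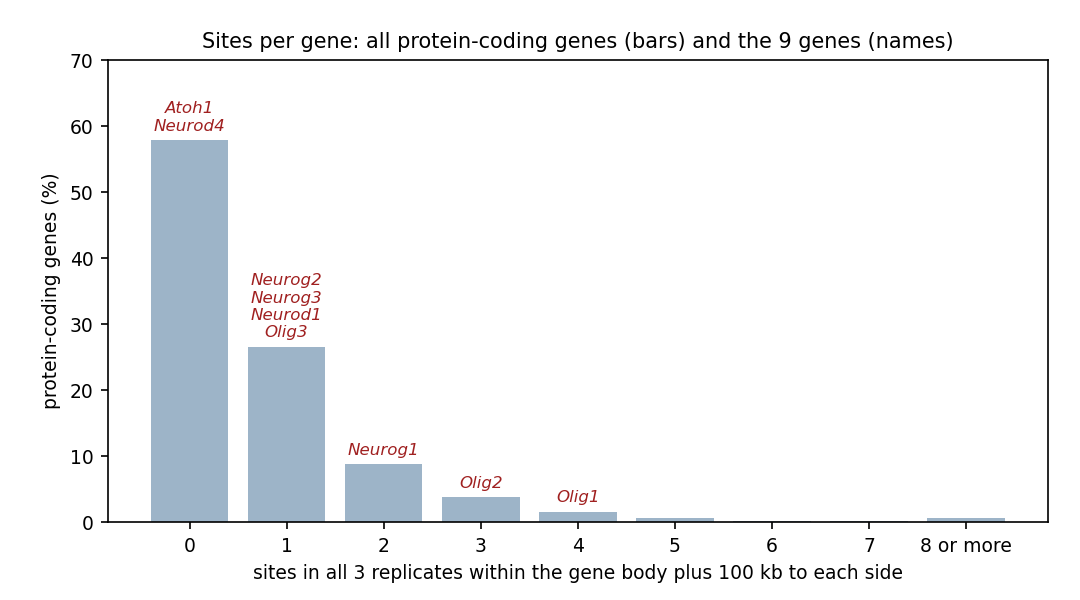
Bars give the percent of 22367 protein-coding genes by their number of sites found in all 3 replicates within the gene body plus 100 kb to each side, and the names of the 9 bHLH genes stand above the bar of their own number. Atoh1 and Neurod4 stand above 0 sites, the tallest bar, and Olig1 above 4.

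The map of peak positions shows most of the sites found in all 3 replicates at a distance from the gene they were assigned to. Of these 10 sites, 6 were intergenic, 1 was in an intron and 3 were within 2000 bp of a start of a protein-coding gene, and for 5 of the 10 a bHLH gene of the list had the nearest start. A single one of the 10, at Neurog1, lay at the start of its own bHLH gene. The 10 sites were 98 to 815 bp wide with a median of 389.5 bp, and the median over all 5358 sites was 401 bp.

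**Figure D2:**
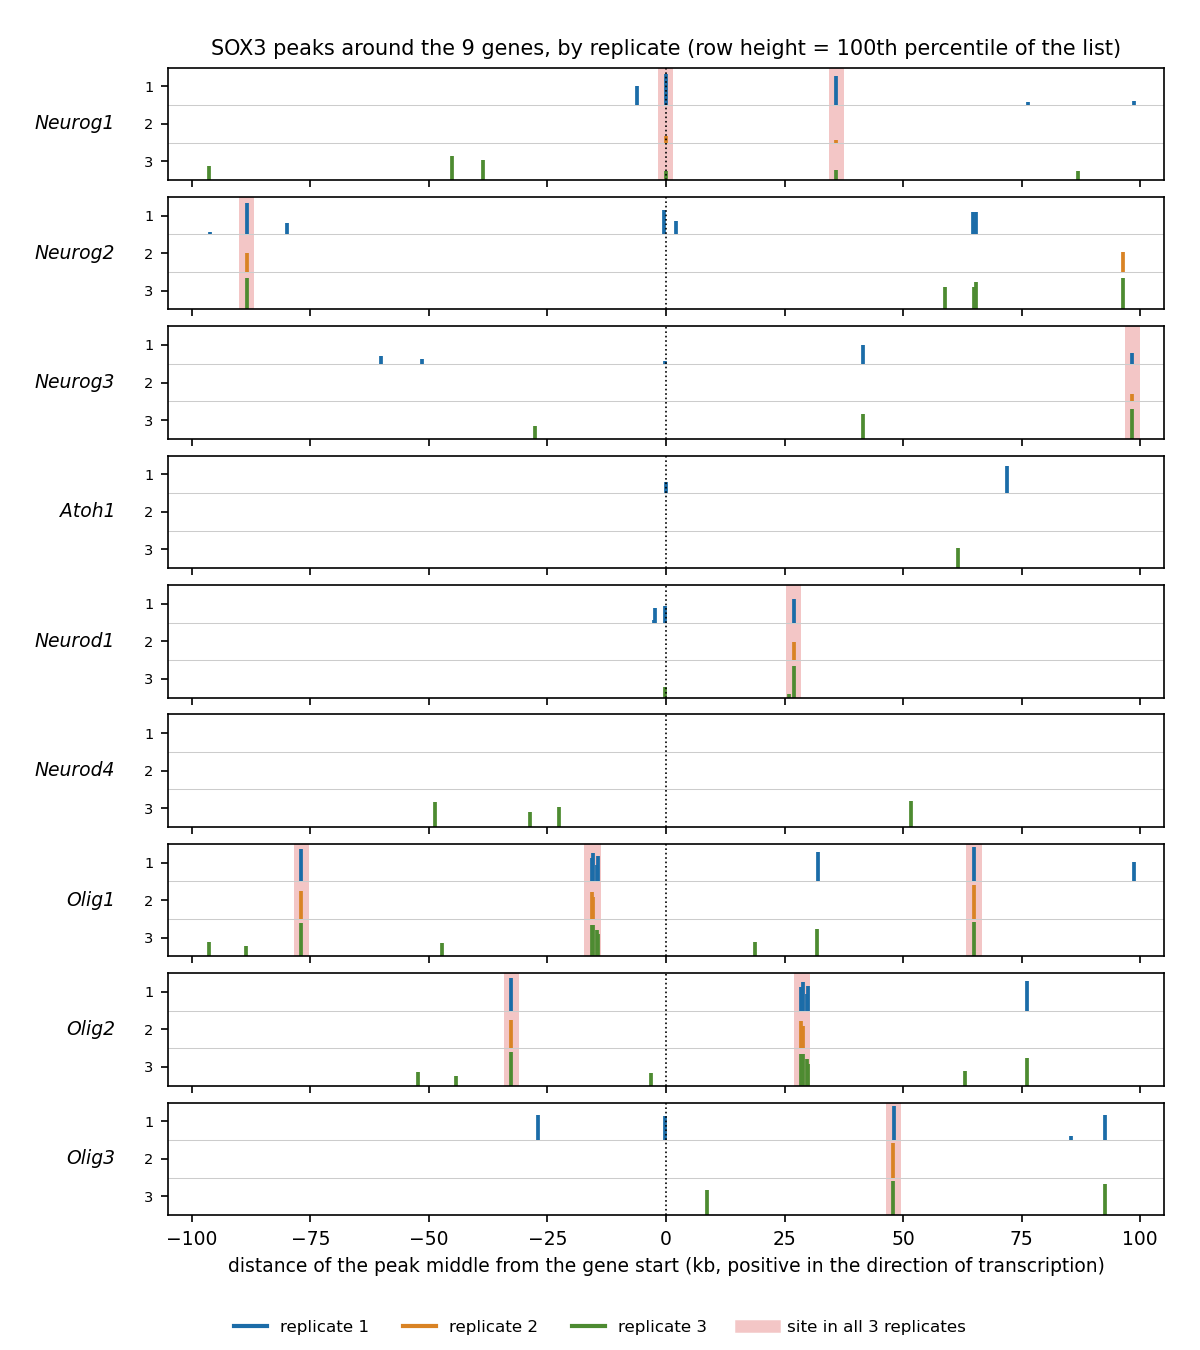
Each panel is a gene and each row in it a replicate; bars mark the middle of a peak by its distance from the gene start in kb, positive in the direction of transcription, and bar height is the percentile of the score in its list. Pink bands mark sites in all 3 replicates, which are lacking at Atoh1 and Neurod4.

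Neurog1 (ENSMUSG00000048904, chromosome 13 from 56351866 to 56353524, minus strand) and Neurog2 commit progenitors of sensory ganglia, spinal cord and dorsal telencephalon to the neuronal fate. Neurog1 had 9 sites, of which 2 were in all 3 replicates and the other 7 in a single one. The first, at 56353412 to 56353824, covered the gene start, with its middle 94 bp upstream. Replicate 1 gave it a score of 247, replicate 2 a score of 55.97 and replicate 3 a score of 54.6, which rank 2090, 6662 and 30686 in their lists. The site was thus in the upper part of the list of replicate 1, at percentile 88.9, and near the threshold in replicates 2 and 3, at percentiles 17.7 and 24.2. Its printed sequence holds AACAAT and a POU octamer, and 70.5% of the 200 bp around its middle were G or C. The second site, at 56317476 to 56317812, lay 35.9 kb beyond the start in the direction of transcription, in intergenic sequence with Neurog1 as the nearest protein-coding gene and the lincRNA 4930550C17Rik in between. It scored 185 in replicate 1, 51.7 in replicate 2 and 55.5 in replicate 3, at percentiles 83.3, 5.67 and 27.7. Replicate 1 was again high and the others low, and by their lowest percentile these sites took places 4763 and 5155 among the 5358 sites found in all 3 replicates.

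Neurog2 (ENSMUSG00000027967, chromosome 3 from 127336054 to 127338549, plus strand) had 10 sites, with 1 in all 3 replicates and 4 in 2 replicates. The site in all 3 replicates, at 127247442 to 127247840, lay 88.4 kb upstream in an intron of Larp7, a gene for a protein that binds the 7SK RNA. Its score was 255 in replicate 1, 89.04 in replicate 2 and 158 in replicate 3, with ranks of 1999, 3632 and 3698 and percentiles of 89.4, 55.1 and 90.9. Replicates 1 and 3 placed it high in their lists and replicate 2 near the middle. The starts of Larp7 and 4930422G04Rik lie between it and Neurog2, while the hairpin of Mir302b (127248146 to 127248219), a miRNA of the cluster known from ES cells, lies 306 bp away, and the site is listed under Neurog2 by the window alone. At the start of Neurog2 a peak was called in replicate 1 alone, 408 bp upstream, with a score of 121 (rank 5548), and a second peak of replicate 1 alone, with a score of 65.5, lay in an exon of the gene. Of the sites in 2 replicates, the one in an exon of Alpk1, 96.4 kb downstream, scored 90.5 in replicate 2 and 172 in replicate 3 and was the only site near the 9 genes shared by these replicates without replicate 1. The other 3, in an intron of Alpk1 between 127400763 and 127401532, came from replicates 1 and 3, and their sequences occur up to 8 times in the reference.

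Neurog3 (ENSMUSG00000044312, chromosome 10 from 61595838 to 61597511, plus strand), the gene that starts endocrine differentiation in the pancreas and is also active in the hypothalamus, had 6 sites. Its site in all 3 replicates, at 61693926 to 61694305, lay 98.3 kb from the start, near the edge of the window, with its middle 141.5 bp from the start of Tspan15, a tetraspanin gene. The scores were 59.9, 57.3 and 124 in replicates 1, 2 and 3, at percentiles 28.8, 20.6 and 87.02. Here replicate 3 was high and the other replicates were low. A site of replicates 1 and 3, at 61637250 to 61637554 and 41.6 kb downstream, scored 82.5 and 81.8. At the start of Neurog3 a peak of replicate 1 alone, 126.5 bp upstream, scored 52.6, at percentile 7.28 of its list.

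Atoh1 (ENSMUSG00000073043, chromosome 6 from 64679140 to 64681227, plus strand) specifies granule neurons of the cerebellum and hair cells of the inner ear. It had 3 sites, none of them shared by any replicates. A peak of replicate 1 covered the gene start, with its middle 10 bp upstream, and scored 60.9, at percentile 30.99. A peak of replicate 3, 61.6 kb downstream, scored 68.8, at percentile 58.8. The highest peak, from replicate 1 and at 64750952 to 64751317, lay 72.0 kb downstream and scored 157, which ranks 3944 of 18816, at percentile 79.03. That was the highest percentile of the 18 sites near the bHLH genes found in replicate 1 alone, whose median was 30.8. The nearest other start, that of Smarcad1, lies at least 241.5 kb from each of these peaks, and Atoh1 had no other protein-coding start in its window.

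Neurod1 (ENSMUSG00000034701, chromosome 2 from 79292678 to 79296908, minus strand) acts downstream of the neurogenins in differentiating neurons and in pancreatic islets. It had 5 sites, with 1 in all 3 replicates at 79269776 to 79270111, which is 27.0 kb beyond the start in the direction of transcription. The scores were 113.5, 81.7 and 175 in replicates 1, 2 and 3, which rank 5995, 4075 and 3211, at percentiles 68.1, 49.6 and 92.1. This site was in the upper part of the list in replicates 1 and 3 and in the middle in replicate 2. It lay 789.5 bp from an annotated start of Cerkl, a gene for a ceramide kinase-like protein active in the retina, and its printed sequence holds none of the SOX words and no POU octamer. At the start of Neurod1, 199.5 bp upstream and 165.5 bp from another annotated start of Cerkl, a site of replicates 1 and 3 scored 73.5 and 55.8, at percentiles 47.1 and 28.3. Which of these starts the site belongs to cannot be told from the lists.

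Neurod4 (ENSMUSG00000048015, chromosome 10 from 129705209 to 129717296, minus strand), which acts with other bHLH factors in the differentiation of retinal and other neurons, had 4 sites, and all came from replicate 3 alone. The highest, 51.6 kb beyond the start in the direction of transcription at 129665625 to 129665806, scored 86.9, at percentile 75.06. The other 3, from 22.6 to 48.7 kb upstream, scored 67.6, 60.3 and 80.3. These 3 peaks were mostly multi-copy, and the sequences of 1 of them occur up to 9345 times in the reference. No peak of replicates 1 or 2 lay in the whole window of Neurod4, which no other gene of the list showed.

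Olig2 (ENSMUSG00000039830, chromosome 16 from 91225795 to 91228922, plus strand) is needed for motor neurons and for oligodendrocyte precursors, and Olig1 (ENSMUSG00000046160, chromosome 16 from 91270014 to 91272184, plus strand) for the maturation of oligodendrocytes. Olig1 had 12 sites and Olig2 had 10, and all 10 sites of Olig2 were also in the window of Olig1. The highest site of the locus, at 91334650 to 91335230, lay 64.9 kb downstream of Olig1 and outside the window of Olig2, with the start of Ifnar2, a subunit of the type I interferon receptor, 38.1 kb away as the nearest. Its score was 1144 in replicate 1, 478 in replicate 2 and 719 in replicate 3, with ranks of 124, 249 and 411. All 3 replicates placed it high, at percentiles 99.3, 96.9 and 98.99, and by its lowest percentile it took place 239 of 5358. Its printed sequence holds AACAAA once on each strand.

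The next site, at 91192820 to 91193477, lay 32.6 kb upstream of Olig2 and 76.9 kb upstream of Olig1, in intergenic sequence whose nearest start is that of Gm9881. The scores were 398, 166 and 281 in replicates 1, 2 and 3, at percentiles 94.8, 81.04 and 95.98. It was high in every replicate, somewhat less so in replicate 2, and its printed sequence holds AACAAA and, further on, each form of the related word, GACAAT before GACAAA. Between the genes, 2 more sites were found in all 3 replicates. The first, 98 bp wide at 91254310 to 91254407, scored 109 in replicate 1, 145 in replicate 2 and 163 in replicate 3. The second, 117 bp further at 91254525 to 91254756, scored 181, 104 and 171. These sites were in the upper part of each list, at percentiles from 62.7 to 91.8, and they were followed by sites of replicates 1 and 3 at 91255382 to 91255467 and at 91255576 to 91255758.

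Every 50-base sequence under the peaks of these 4 neighbouring sites between Olig2 and Olig1 occurs more than once in the reference. The highest numbers of copies were 19, 73, 21 and 197 in the order of the sites. No peak at the sites 32.6 kb upstream of Olig2 or 64.9 kb downstream of Olig1 held a multi-copy sequence. Without mostly multi-copy peaks, an alternative that for single genes was added with the data in view, Olig1 kept 2 of its 4 sites and Olig2 kept 1 of its 3. A further site of replicates 1 and 3, at 91301785 to 91302135 and 31.9 kb downstream of Olig1, scored 201 and 94.0. The starts of Olig1 and Olig2 had no peak within 2000 bp in any replicate, and the nearest peak to the Olig2 start, 3091 bp upstream, was from replicate 3 alone and scored 57.9.

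**Figure D3:**
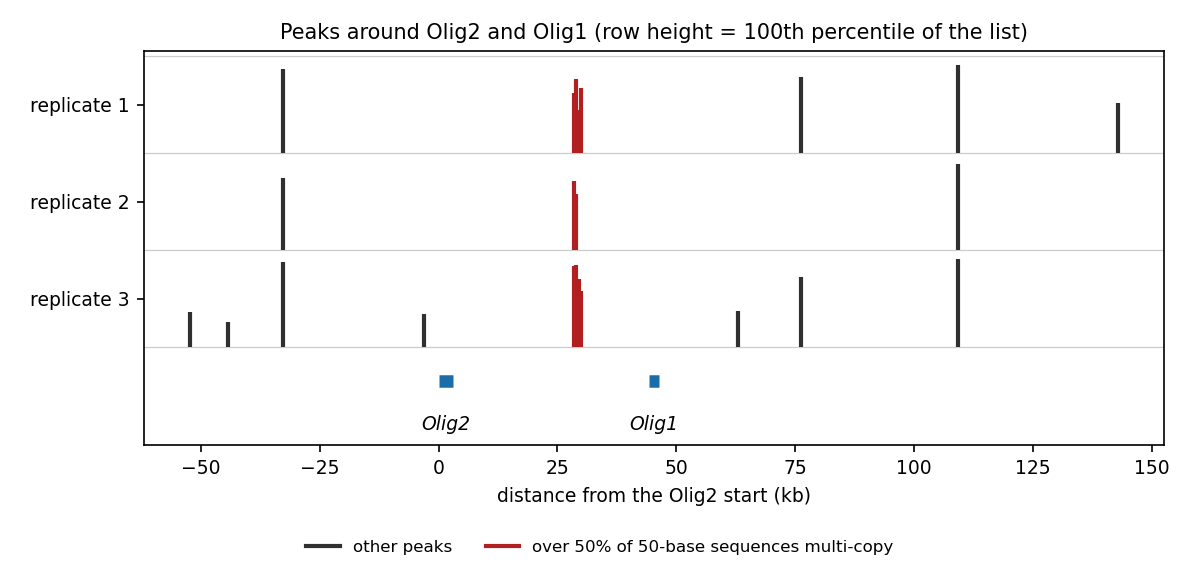
Peaks of each replicate are placed by distance from the Olig2 start in kb, bar height is the percentile of the score in its list, blue boxes are the genes, and red marks peaks of which over 50% of the 50-base sequences are multi-copy. The red peaks lie between the genes, and the black peaks 32.6 kb before the Olig2 start and the first beyond 100 kb after it, the site 64.9 kb downstream of Olig1, are present in each replicate.

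Olig3 (ENSMUSG00000045591, chromosome 10 from 19076366 to 19078412, plus strand), which marks dorsal progenitors of the spinal cord and hindbrain, had the highest site of the 9 genes. This site, 815 bp wide at 19123928 to 19124742, lay 48.0 kb downstream in intergenic sequence, with Olig3 as the nearest gene and Ifngr1 the next at 187 kb. Its score was 1434 in replicate 1, 709 in replicate 2 and 1339 in replicate 3, with ranks of 72, 103 and 100. All 3 replicates placed it near the top of their lists, at percentiles 99.6, 98.7 and 99.8, and it took place 101 of 5358. The printed part of it holds AACAAT on the minus strand and an E-box CAGCTG at 19124457 to 19124462. A further site of replicates 1 and 3, 92.6 kb downstream at 19168733 to 19169214, scored 122 and 155. The other 4 sites of Olig3 came from a single replicate, with scores of 113 at the gene start, 125 at 27.0 kb upstream and 53.03 at 85.4 kb downstream in replicate 1 and 82.9 at 8.59 kb downstream in replicate 3. Only the site at 48.0 kb was high in every list.

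The scores of the 10 sites found in all 3 replicates spanned most of each list, from percentile 5.67 to 99.8. In replicate 1 their median percentile was 86.1, and it was 82.6 over all such sites. In replicate 2 the medians were 58.9 for the 10 sites and 65.03 for all, and in replicate 3 they were 91.6 and 92.8. The Olig sites had the highest lowest percentile and the Neurog1 and Neurog3 sites the lowest, as the plot of percentiles shows. A site at or above the 90th percentile in every list was present near 2 of the 9 genes, Olig1 and Olig3, a threshold chosen after the values were seen, and near 7.27% of all protein-coding genes. With only peaks of a score of at least 100, Olig1, Olig2 and Olig3 kept their sites in all 3 replicates, 4, 3 and 1, and none of the other genes had one, so that 3 of the 9 genes, and 23.5% of all protein-coding genes, had such a site. Of the sites kept at Olig1 and Olig2, 2 were the multi-copy sites between these genes.

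**Figure D4:**
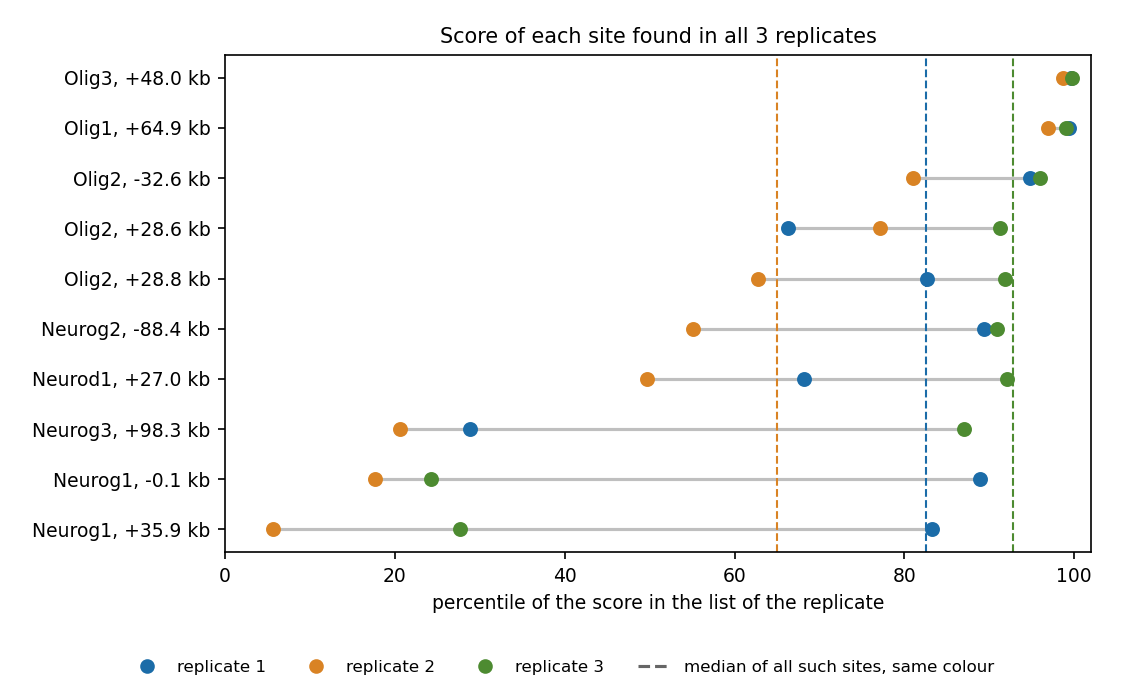
Each row is a site found in all 3 replicates, named by a gene and its distance from the gene start in kb, each point is the percentile of its score in the list of a replicate, and dashed lines are the medians over all 5358 such sites. The Olig3 and the +64.9 kb Olig1 site have every point above 96, and the Neurog1 sites have points of replicates 2 and 3 below 28.

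Peaks at the gene starts differed by replicate. Within 2000 bp of the start, replicate 1 had a peak at 6 of the 9 genes (Neurog1, Neurog2, Neurog3, Atoh1, Neurod1 and Olig3), and 18.3% of all protein-coding genes had one in this replicate. Replicate 2 had one at Neurog1 alone, with 5.29% of all genes, and replicate 3 at Neurog1 and Neurod1, with 15.7% of all genes. At 4 of the 9 genes (Neurog2, Neurog3, Atoh1 and Olig3) the start had a peak in replicate 1 and in no other, and this held for 10.1% of all genes. Neurog1 had a start peak in every replicate, as did 4.32% of all genes. Neurod4, Olig1 and Olig2 had none, so that 6 of the 9 genes, and 26% of all, had a start peak in any replicate.

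The share of sites at promoters also moved with the replicate over the whole genome. Of the 10617 sites of replicate 1 alone, 30.1% (95% Wilson interval 29.2 to 30.95) were within 2000 bp of a start, and of the 30116 sites of replicate 3 alone, 9.03% (8.71 to 9.35) were. Of the 196 sites of replicate 2 alone 14.3% (10.1 to 19.9) were, and of the sites of all 3 replicates 19.2% (18.2 to 20.3). The promoter sites of replicate 1 alone were rich in G and C, with a median of 62.5% of 200 bp, against 50% at its other sites, and promoter sites of all 3 replicates also had more than other such sites, with medians of 58.5 and 48.5%. At the start peaks of the bHLH genes the G and C content was 66.5% at Neurog2, 71% at Neurog3, 59.5% at Atoh1 and 51% at Olig3, all from replicate 1 alone, and it was 70.5% at Neurog1, found in every replicate, and 59.5% at Neurod1, found in replicates 1 and 3. The part of base composition in these peaks of replicate 1 alone was not tested.

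**Figure D5:**
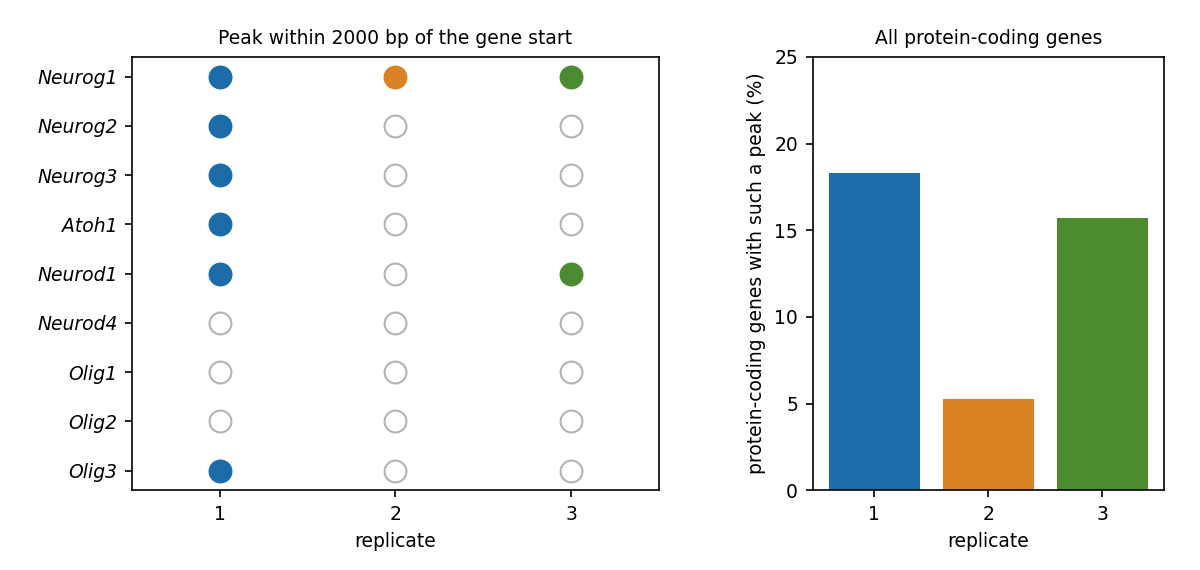
Left, filled circles mark a peak within 2000 bp of the gene start in replicates 1, 2 and 3 and open circles mark none; right, bars give the percent of all protein-coding genes with such a peak in each replicate. Replicate 1 has 6 filled circles, replicate 2 has 1 and replicate 3 has 2, and the bars are at 18.3, 5.29 and 15.7%.

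Exact words were counted on both strands in the 200 bp around the middle of each site. AACAAA or AACAAT was present in 4 of the 10 bHLH sites, or 40% (95% Wilson interval 16.8 to 68.7), in 47.9% of all 5358 sites (46.6 to 49.2) and in 31.7% of 10708 windows 2000 bp to either side of them (30.8 to 32.6). The 4 were the sites at the start of Neurog1, upstream of Neurog2, downstream of Olig1 and downstream of Olig3. With 400 bp or with whole regions the share of the 10 sites was 50%, as the site upstream of Olig2 was then included. GACAAA or GACAAT was present in 1 of the 10 sites, that upstream of Olig2, or 10% (1.79 to 40.4). It was in 33.2% of all sites and in 19.2% of the windows beside them, and with whole regions in place of 200 bp in 3 of the 10. The shares over all sites were counted in 200 bp only, so counts over longer stretches have none to be read against. The intervals of the 10 sites are wide, and for AACAAA or AACAAT and for GACAAA or GACAAT they hold the share over all sites. They cover counting error only.

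The POU octamer was present in 3 of the 10 sites, or 30% (10.8 to 60.3), in 8.92% of all sites (8.19 to 9.71) and in 2.15% of the windows beside them. The 3 were both Neurog1 sites and the multi-copy site at 91254310 between the Olig genes, where it lay in the 200 bp but outside the 98 bp of the peaks, so that whole regions gave 2 of 10. The composite SOX/POU word, which includes most of the octamer, was in 1 of the 10 sites, the same multi-copy one, in 6.46% of all sites and in 0.205% of the windows beside them. The E-box CAGCTG was in 3 of the 10 sites, in 15.1% of all sites and in 8.11% of the windows beside them. These 3 were the site near Neurod1 and both multi-copy sites between the Olig genes. CATCTG, the other E-box counted, was in 0 of 10 (up to 27.8%), in 13.1% of all sites and in 14.7% of the windows beside them. With whole regions in place of 200 bp, CATCTG was in 1 of the 10 sites, that upstream of Neurog2, CAGCTG was in 4 and the SOX/POU word in 0. For whole regions, which differ in length from 200 bp, no share over all sites was counted. A match of letters is no measurement of a bound factor.

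Other genes of the bHLH network were counted in the same windows. Among 9 other neural bHLH genes, 4 had a site in all 3 replicates: Neurod2 and Nhlh2 with 1, Bhlhe23 with 2 and Nhlh1 with 3. Atoh7, Atoh8, Neurod6, Bhlhe22 and Ptf1a had none, and the median of the 9 was 0 sites. Of the E-proteins, the partners of the proneural factors, Tcf3 had 2 sites and Tcf12 had 4, and Tcf4 had none. The genes Tcf12 and Tcf4 are 267568 and 343822 bp long, so their windows were longer than those of the other genes listed. All 7 HLH repressors and inhibitors, which oppose the proneural factors, had at least 1 site, with 1 at Hes1 and Hey1, 2 at each of Id1, Id2, Id3 and Id4 and 4 at Hes5, and a median of 2. The share over all protein-coding genes was 42.2% with a median of 0 sites, and these short lists were not tested against it.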

How the data were processed

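The authors aligned 50-base single-end reads to mm9 with Bowtie (1.0.0, per the labels) and called peaks in each replicate separately with MACS against the input, at a p-value threshold of 1e-05. The MACS version was not given in the sources used here. The value deposited for each peak by the authors is a score, which equals the MACS p-value on a negative log10 scale multiplied by 10, with no normalization between replicates. Read depth is unknown, and the sites that lie in regions of repeated sequence depend on how reads with several matches were placed, which is not given in the sources used here.

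Peak positions were read as counted from 0 at the start and are printed counted from 1. Genes came from GENCODE vM1 on NCBIM37, the assembly that mm9 names, and no peak ended beyond its chromosome. Overlaps of at least 1 bp joined peaks into sites. A promoter was the 2000 bp to either side of a protein-coding transcript start, and distances run from the gene start to the middle of the site. Repetition was counted over all 50-base sequences of a peak on both strands. Intervals are 95% Wilson intervals and cover counting error only. The procedure was tested on simulated data.

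The genes named are the 9 chosen, the gene nearest to each of their sites in all 3 replicates, and 3 fixed lists of other bHLH and HLH genes (9 neural, 3 E-proteins and 7 repressors and inhibitors), and a further item of the first list is not reported here. Members and lists were chosen with earlier results of these data known. Smarcad1, Alpk1, Ifngr1, 4930422G04Rik, 4930550C17Rik, Mir302b and most sites in 1 or 2 replicates were named after the values were seen. Alternatives were the p-value threshold, equal list lengths, the overlap rule, the window, the word window, each replicate left out and, in part added after the data were seen, no mostly multi-copy peaks. Computations were run in Python 3.11.15 with the packages numpy 2.4.6, scipy 1.17.1, pysam 0.24.0, numba 0.67.0 and matplotlib 3.10.9.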

Additional observations from a re-analysis of the deposited data

How the results depend on the processing

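The 7 genes with a site in all 3 replicates, their 10 sites, the 42.2% of all protein-coding genes with such a site and the 40% of the 10 sites with AACAAA or AACAAT were recomputed under the alternatives that bear on them (the share with the word not for other windows around the genes, the others not for other lengths of sequence), and these values have no test. With peaks of a score of at least 100 they were 3 genes, 5 sites and 23.5% of all genes. With equal numbers of peaks the share of all genes was 33.2%, with 5 genes and 7 sites, and Neurog1 and Neurog3 had none. With a reciprocal overlap of 50% it was 40.4% and Neurog3 had none, with a window of 50 kb it was 28.8% and Neurog2 and Neurog3 had none, and with 100 kb around the gene start 37.6%. A window of 200 kb gave 18 sites and 60.6% of all genes, and Neurod4 then had 1 site, Neurog1 and Olig3 had 4 and Neurog2 had 3. Without mostly multi-copy peaks, in part chosen after seeing the data, the share of all genes was 37%, with 7 genes and 8 sites. Leaving out each replicate in turn gave 7 genes each time, 10 to 19 sites, 42.9 to 55% of all genes and 36.8 to 54.5% of sites with the word; the 19 and the 55% were without replicate 2. No paired analysis was possible because the ChIP samples form a single group and the input has 1 sample and no list of peaks analysed here. The unknown depth and the unequal lists limit what the lack of a peak, above all in replicate 2, can show.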
